A study of Mus musculus with 24 samples.

Results

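Chromatin accessibility at day 2 (D2) was compared with that at day 3 (D3) of a course in which A2lox.cre mouse embryonic stem cells, an established line, are taken towards cardiomyocytes. ATAC-seq was used, in which the Tn5 transposase inserts sequencing adapters into open DNA and stretches with many insertions are called as peaks. The comparison uses 4 of the 24 samples of the series, 2 biological replicates at each day, and both replicates of a day share 1 deposited peak list. The D2 and D3 samples have the same labels apart from the day: the same line, described as an intermediate of cardiac differentiation, with no genotype, added factor or dose named for either day. With 1 list per day there is no spread between replicates, so no difference below was tested. Shares are given with Wilson 95% intervals, which cover counting error only.

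Peaks of both lists were joined where they overlapped by at least 1 bp, which gave 42351 regions on the mm10 build. Of these, 25551 (60.3%) had a peak in both lists and are called shared. The 7229 regions with a peak at D2 and none at D3 are called D2-only, and the 9571 with a peak at D3 and none at D2 are called D3-only. The percentage of all regions was 17.1 for D2-only and 22.6 for D3-only. The lists were of similar length, with 39328 peaks at D2 and 39783 at D3, and both end at a −log10 q of 1.30. They did not have the same statistical weight: at a fold enrichment of 4.9 to 5.1 the median −log10 p was 8.65 at D2 and 11.6 at D3. Absence from a list means only that no peak was called, not that the chromatin was closed. The part that this difference in weight has in the results was not tested.

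In mouse embryos, epiblast cells that leave pluripotency and enter the primitive streak switch on the T-box factors T and Eomes under Wnt, Nodal and BMP signals, and nascent mesoderm then expresses Mesp1, a factor at the head of the cardiac lineage. Embryonic stem cell courses towards cardiomyocytes pass through comparable stages. Enhancers that lie away from promoters are, in general, more specific to a stage than promoters are, and many developmental promoters are accessible before their genes are used.

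Regions at the starts of marker genes were counted, a start region being one centred within 1 kb of an annotated start. Of 17 naive pluripotency genes, 14 had a shared start region, among them Nanog, Sox2 and Pou5f1, core factors of the pluripotent state. Of 18 primitive streak and mesendoderm genes, 14 had one too, among them T, Eomes, Mixl1, Gsc and Nodal. Of 19 sarcomere genes, whose products build the contractile apparatus, 3 had one (Actn2, Nebl and Tpm1), and Myh6, Tnnt2 and Actc1 had no start region in either list. Neural ectoderm genes had shared start regions at 13 of 15 genes. So did 9 of 12 housekeeping, 14 of 20 cardiac progenitor and 15 of 17 formative genes. Over all 21045 promoter windows, described below, 58.5% lay under a shared region, a related but not identical measure. A shared start region therefore does not by itself mark a stage. Few start regions differed in call between the days. Across all 13 gene groups, D2-only start regions without a shared one were found at Msgn1, Tbx6, Lmo2 and Tek, and D3-only ones at 10 genes. Those were Lin28b, Otx2, Sp5, Hand1, Tbx1, Hes5, Six3, Lefty1, Fgf17 and Fgf9.

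Promoter sequences are shown for 6 genes of the groups, to set promoters called on 1 day beside promoters called on both. Sp5, a transcriptional target of Wnt signalling, Wnt5b, a Wnt ligand, and Otx2, a factor of the formative and anterior epiblast, had promoters under D3-only regions. Wnt5b had a shared start region as well. Tek, an endothelial receptor, was the only gene of the groups with a promoter under a D2-only region. T and Mesp1 had promoters under shared regions. The windows run from 250 bases before to 50 bases after the start and come from RefSeq (GRCm38.p6, the assembly that mm10 names), on the strand of the gene. Capitals mark matches, on either strand, to the T-box motif GGTGTGA, the TCF/LEF motif CTTTGAT, the octamer ATGCAAAT, the GC box GGGCGG and the TATA box TATAAA.
Sp5 promoter, chr2:70474673-70474972, plus strand: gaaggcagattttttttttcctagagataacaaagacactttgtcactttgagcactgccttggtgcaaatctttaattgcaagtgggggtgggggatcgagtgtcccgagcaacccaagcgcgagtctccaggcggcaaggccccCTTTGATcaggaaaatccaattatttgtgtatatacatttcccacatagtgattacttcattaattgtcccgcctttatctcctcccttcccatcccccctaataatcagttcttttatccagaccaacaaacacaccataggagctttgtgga
Wnt5b promoter, chr6:119449337-119449636, minus strand: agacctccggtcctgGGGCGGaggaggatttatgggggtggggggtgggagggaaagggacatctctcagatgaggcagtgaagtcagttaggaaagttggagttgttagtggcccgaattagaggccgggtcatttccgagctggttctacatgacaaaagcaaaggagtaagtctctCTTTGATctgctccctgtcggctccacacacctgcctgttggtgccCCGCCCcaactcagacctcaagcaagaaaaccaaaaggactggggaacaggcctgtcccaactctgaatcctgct
Otx2 promoter, chr14:48662685-48662984, minus strand: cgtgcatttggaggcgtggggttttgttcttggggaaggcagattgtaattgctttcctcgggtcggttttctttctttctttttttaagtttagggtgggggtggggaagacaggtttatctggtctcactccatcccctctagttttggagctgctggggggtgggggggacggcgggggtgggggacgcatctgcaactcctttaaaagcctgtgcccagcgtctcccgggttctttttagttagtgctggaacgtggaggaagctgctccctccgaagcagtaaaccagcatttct
Tek promoter, chr4:94739039-94739338, plus strand: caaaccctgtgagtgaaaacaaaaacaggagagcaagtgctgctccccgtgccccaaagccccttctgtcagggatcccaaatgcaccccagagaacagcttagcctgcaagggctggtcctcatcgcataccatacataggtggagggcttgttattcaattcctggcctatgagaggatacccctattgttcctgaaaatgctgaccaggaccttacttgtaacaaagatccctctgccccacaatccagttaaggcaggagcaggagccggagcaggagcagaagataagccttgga
T promoter, chr17:8434173-8434472, plus strand: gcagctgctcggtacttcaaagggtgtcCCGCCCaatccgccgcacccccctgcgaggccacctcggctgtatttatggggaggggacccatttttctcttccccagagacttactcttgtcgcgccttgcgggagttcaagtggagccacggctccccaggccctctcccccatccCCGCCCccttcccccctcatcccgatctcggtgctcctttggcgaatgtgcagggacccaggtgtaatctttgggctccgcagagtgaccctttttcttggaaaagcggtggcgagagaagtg
Mesp1 promoter, chr7:79793541-79793840, minus strand: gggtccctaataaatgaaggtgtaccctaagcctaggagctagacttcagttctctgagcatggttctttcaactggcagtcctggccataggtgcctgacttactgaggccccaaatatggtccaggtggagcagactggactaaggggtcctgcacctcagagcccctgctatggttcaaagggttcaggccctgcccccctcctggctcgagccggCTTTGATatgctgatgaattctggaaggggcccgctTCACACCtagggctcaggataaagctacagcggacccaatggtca

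The Sp5 window held 1 TCF/LEF match and the Wnt5b window held 1 TCF/LEF match and 2 GC boxes. The Otx2 and Tek windows held none of the 5 motifs. The T window held 2 GC boxes, and the Mesp1 window held 1 T-box and 1 TCF/LEF match. A match is a string of letters and not a measured binding site. Over all 21045 promoter windows, the TCF/LEF motif was in 3.25% and the T-box motif in 3.67%. The windows under D3-only regions had the TCF/LEF motif in 2.14% (1.09 to 4.17%) and the T-box motif in 5.36% (3.50 to 8.14%), so neither share lay outside its counting error of the share over all windows.

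The region over the Sp5 window had a fold enrichment of 4.86 at D3 and was called in 9 lists (2i, D3 to D8, D10 and D15). The region over the Otx2 window had 3.56 and was called at D3, D4, D5 and D7. The one over the Wnt5b window had 6.28 at D3 and was called at 2i, D3 to D8 and D15. The Tek region had 3.89 at D2 and was called in 10 of the 12 lists, with D1 and D3 as the exceptions. All of these regions were thus called at other stages as well. Fold enrichment here is the authors' own value for the peak, the signal over the local background.

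Promoters called on 1 day differed in base composition from those called on both. Windows under shared regions, 12320 in number, had a median GC content of 62.7% and a median of 22 CpG dinucleotides. The 373 windows under D3-only regions, 1.77% of all windows, had medians of 58.0% and 10 CpG. The 180 windows under D2-only regions, 0.855% of all, had 53.3% and 8 CpG, and the 8171 windows under neither had 47.0% and 3 CpG. Median values for both kinds of promoter called on 1 day therefore lay between the called and the uncalled promoters. The GC box was in 70.7% (69.9 to 71.5%) of shared windows, 45.6% (40.6 to 50.7%) of D3-only windows and 32.8% (26.3 to 39.9%) of D2-only windows. The TATA box ran the other way, with 5.61% of shared, 8.58% (6.14 to 11.9%) of D3-only and 10.6% (6.86 to 15.9%) of D2-only windows, against 23.5% of windows under neither.

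The strong peaks of each day were called on the other day too, though often at a lower rank. Each list was cut into 10 classes of equal size by −log10 p. All 3301 intervals in the strongest class of the D2 list were overlapped by a D3 peak, and all 3520 in that of the D3 list by a D2 peak. In the weakest class the share overlapped in the other list was 39.4% (37.7 to 41.1%) for D2 and 29.2% (27.8 to 30.8%) for D3. Over whole lists it was 78.1% and 72.8%. The regions called on 1 day had low enrichment accordingly, with a median of 3.90 for D2-only and 4.02 for D3-only regions. Shared regions had medians of 6.35 at D2 and 9.87 at D3.

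**Figure D1:**
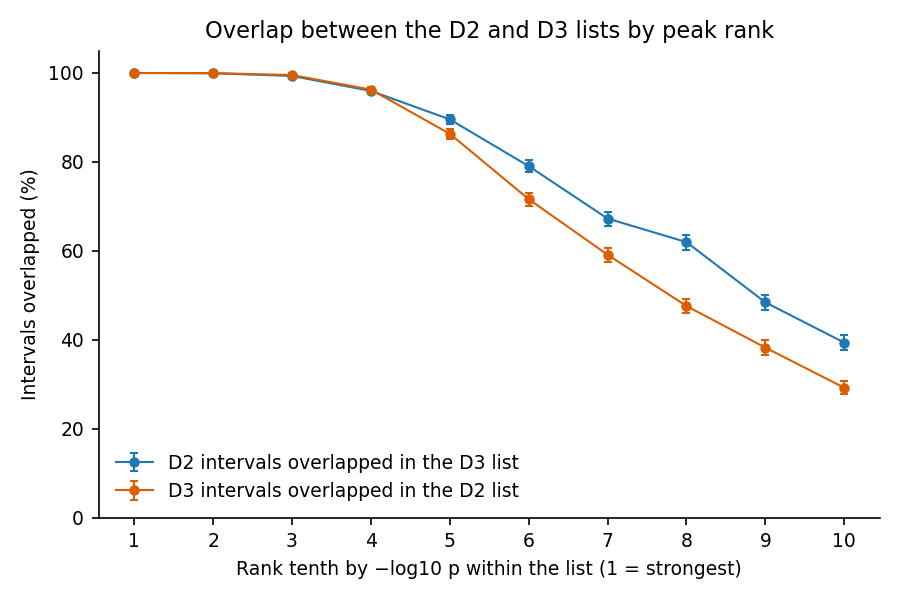
Share of intervals (y axis, percent, with Wilson 95% intervals) overlapped by a peak of the other day, by rank class of −log10 p within each list (x axis, 10 classes, 1 is the strongest). Both curves start at 100% and end at 39.4% for D2 and 29.2% for D3.

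Equal numbers of peaks gave the same order of classes. The 20000 strongest peaks of each list gave 14598 shared, 2360 D2-only and 3897 D3-only regions. Of these, 24.0% of the D2-only and 21.2% of the D3-only regions had no peak at all in the full list of the other day, so the rest were called on both days but ranked lower on one. With the 10000 strongest peaks there were 1297 D2-only and 1945 D3-only regions, and 14 and 7 of them had no peak in the full list of the other day. A region that was strong on 1 day and uncalled on the other was therefore rare.

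Regions called on 1 day were narrow and lay away from promoters. Median width was 787 bp for shared, 327 bp for D2-only and 343 bp for D3-only regions. Shared regions join peaks of both lists, so part of their width comes from the merging. The median interval of a single list was 555 bp at D2 and 606 bp at D3. Start regions made up 49.5% (48.9 to 50.1%) of shared regions, 5.63% (5.12 to 6.19%) of D2-only and 7.23% (6.73 to 7.77%) of D3-only regions. The median distance to the nearest start was 1.15 kb, 41.6 kb and 21.9 kb in that order.

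The D2-only and D3-only regions also differed from each other in how far out they lay. Of D2-only regions 32.5% (31.5 to 33.6%) were over 100 kb from any start, against 14.7% (14.0 to 15.4%) of D3-only and 9.43% of shared regions. Over 50 kb from any gene body lay 28.8% (27.8 to 29.9%) of D2-only and 15.1% (14.4 to 15.8%) of D3-only regions. D3-only regions were most often 10 to 50 kb from a start, with 41.8% (40.8 to 42.8%) there against 31.1% (30.1 to 32.2%) of D2-only regions. Inside a gene body were 49.4% of D3-only, 43.8% of D2-only and 63.8% of shared regions. With the 20000 strongest peaks the contrast was kept: 29.4% of D2-only and 10.5% of D3-only regions were over 50 kb from a gene.

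**Figure D2:**
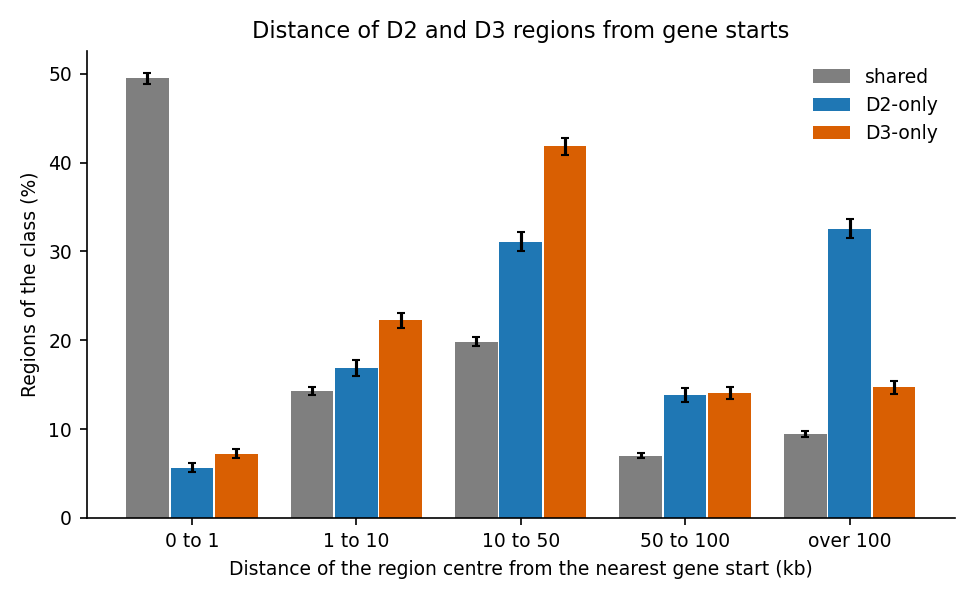
Share of shared, D2-only and D3-only regions (y axis, percent of the class, with Wilson 95% intervals) by distance of the region centre from the nearest gene start (x axis, kb). Shared regions fill the bin up to 1 kb (49.5%), D3-only regions the bin from 10 to 50 kb (41.8%), and D2-only regions the bin over 100 kb (32.5%).

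The same contrast showed across chromosomes. Chromosome 19, with 11.5 protein-coding genes per Mb, had 8.41% D2-only and 28.0% D3-only regions. Chromosome 3, with 6.15 genes per Mb, had 23.7% and 17.2%. Over the 20 chromosomes, which share the same 2 lists, Spearman's rho with gene density was -0.74 for the D2-only share and 0.41 for the D3-only share, given as a description. On chromosome X, 43 of 467 start regions were D3-only (9.21%, 6.91 to 12.2%), against 4.89% (4.53 to 5.27%) of the 13277 on autosomes. The D2-only share of start regions was 3.64% (2.29 to 5.75%) on X and 2.94% (2.66 to 3.24%) on autosomes.

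Regions near the genes with most D2-only regions illustrate the gene-poor setting. The highest counts were 12 at Nrxn3, 11 at Gpc5, 9 at Robo2 and Tenm4, and 8 at Dlg2 and Macrod2. Nrxn3 encodes a presynaptic adhesion protein, Gpc5 a cell-surface proteoglycan, Robo2 an axon guidance receptor and Dlg2 a synaptic scaffold. These genes are 739.85 to 1997.66 kb long, and longer genes take more regions by their size alone. Genes over 500 kb held 10.2% (9.41 to 11.1%) of the D2-only regions assigned to a gene, 3.51% (3.13 to 3.93%) of D3-only and 3.39% of shared regions. The genes with most D3-only regions were Zfhx3 with 13, Igsf21 and Septin9 with 11, Grik3 with 10 and 6 genes with 9, among them Camta1. Zfhx3, which encodes a homeobox zinc-finger factor, is 682 kb long, Camta1, which encodes a calmodulin-binding factor, is 802 kb long, and Septin9, which encodes a cytoskeletal GTPase, is 163 kb long. The median length of the gene was 68.5 kb for D2-only, 44.9 kb for D3-only and 32.3 kb for shared regions.

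The other 10 lists, which played no part in choosing the regions, showed that the 2 classes had different histories. D2-only regions had been called before D2 more often than D3-only regions. A D1 peak overlapped 30.2% (29.2 to 31.3%) of D2-only and 9.65% (9.08 to 10.3%) of D3-only regions, a D0 peak 35.5% and 17.1%, and a 2i peak 39.2% and 21.1%. Among shared regions 63.4% had a D1 peak. No list before D2 held 72.2% (71.3 to 73.1%) of D3-only regions and 47.8% (46.6 to 48.9%) of D2-only regions.

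After D3 the order was less simple. D4 peaks overlapped 33.4% (32.3 to 34.5%) of D2-only regions and 21.5% (20.6 to 22.3%) of D3-only regions, although D4 follows D3 directly. The D4 list has 56053 peaks and a median −log10 p of 7.71 at a fold enrichment of 4.9 to 5.1, less weight than either day compared here. At D5 the shares were 20.3% and 22.6%, and at D6 they were 9.25% (8.61 to 9.94%) and 18.4% (17.7 to 19.2%). At D10 the D2-only share was again the higher one, 11.5% (10.7 to 12.2%) against 9.84% (9.26 to 10.5%), and at D15 the shares were level at 9.92% and 10.1%. Both a D1 and a D4 peak overlapped 951 D2-only regions (13.2%), which were thus called at D1, D2 and D4 but not at D3, and 239 D3-only regions (2.50%). Among regions at or above the upper quartile of fold enrichment in their class (2030 D2-only and 2430 D3-only regions, ties included), D1 peaks overlapped 52.1% and 14.7%, D4 peaks 41.3% and 28.6%, and D6 peaks 9.46% and 24.7%. Regions seen in no other list numbered 1858 among D2-only (25.7%) and 3558 among D3-only regions (37.2%).

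**Figure D3:**
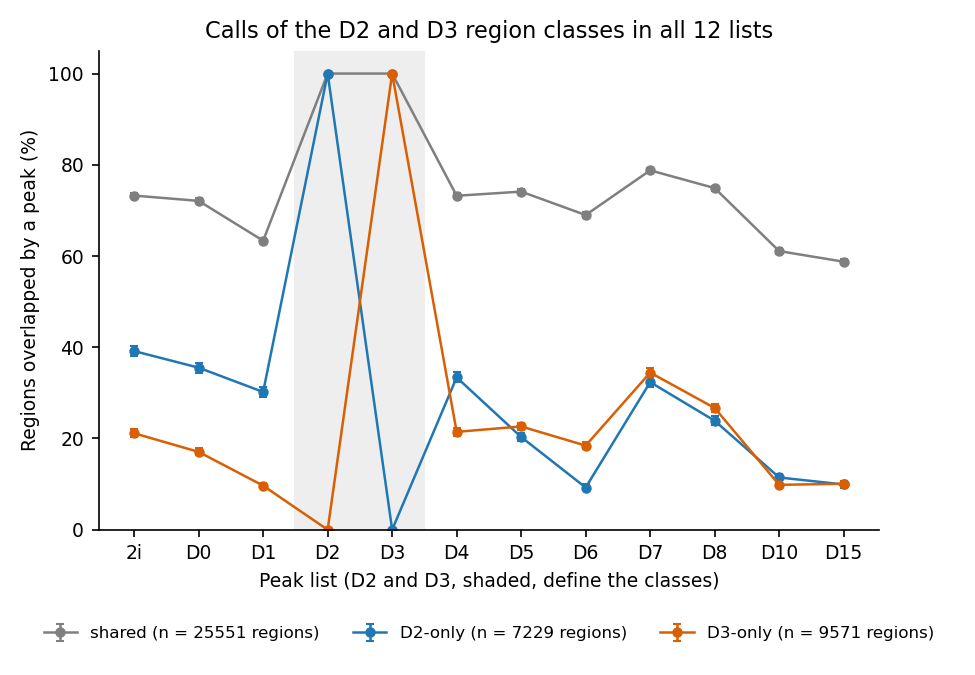
Share of shared, D2-only and D3-only regions (y axis, percent, with Wilson 95% intervals) that a peak of each of the 12 lists overlaps (x axis, D2 and D3 shaded because they define the classes). D2-only regions lie above D3-only regions at 2i, D0, D1, D4 and D10, with 30.2% against 9.65% at D1, and below them from D5 to D8, with 9.25% against 18.4% at D6. At D15 they are level.

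A subset with a clear step was set apart on each side, by rules added after the data were seen. Newly called regions held to D5 were D3-only regions absent at 2i, D0 and D1 and called at both D4 and D5, 761 in all. Of these, 11.4% (9.36 to 13.9%) were start regions, 18.3% (15.7 to 21.2%) lay over 50 kb from a gene, and 62.0% (58.5 to 65.4%) were also called at D6 and 28.0% (24.9 to 31.3%) at D10. The opposite set was the D2-only regions called at D0 and D1 and absent at D4 and D5 as well as D3, 930 in all. Of those, 1.83% (1.14 to 2.91%) were start regions, 50.4% (47.2 to 53.6%) lay over 50 kb from a gene, and 78.6% (75.9 to 81.1%) were called at 2i. Later calls were few but present, with 9 of them called again at D6 and 17 at D10. The second set thus held a larger share far from genes than the first. Over all protein-coding genes, 1.96% had a region of the second set.

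Among gene groups, D3-only regions were assigned to a gene whose body held them or to the nearest within 50 kb. Of all 36490 regions assigned in this way, the percentage called was 14.1 for D2-only and 22.3 for D3-only. Primitive streak and mesendoderm genes had 20 D3-only of 58 regions, 34.5% (23.6 to 47.3%), at 8 of 18 genes, and 5 D2-only regions. Early mesoderm and epithelial-mesenchymal transition genes had 20 of 59 (33.9%, 23.1 to 46.6%) at 13 of 20 genes, and 6 D2-only regions. FGF pathway genes had 24 of 66 (36.4%, 25.8 to 48.4%) at 13 of 16 genes, and Wnt pathway genes 29 of 93 (31.2%, 22.7 to 41.2%) at 17 of 25 genes. Neural ectoderm genes had 12 of 72 (16.7%, 9.80 to 26.9%) at 7 of 15 genes, and endoderm genes 3 of 22 at 3 of 12. D3-only regions were also found at 8 of 17 naive, 11 of 17 formative and 12 of 20 cardiac progenitor genes. Endothelial and blood genes had them at 7 of 15, and Nodal, BMP and TGF-beta pathway genes at 16 of 25. Over all 21631 protein-coding genes, 24.6% had a D3-only and 17.7% a D2-only region. Shares of genes above 24.6% were thus not confined to the streak and early mesoderm groups.

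The intervals of most groups include the share over all genes, and the interval of 1 group against a background is no test. Those whose D3-only interval lay wholly above 22.3% were the streak, early mesoderm, FGF, Wnt and sarcomere groups. The sarcomere group had 11 D3-only of 25 regions (44.0%, 26.7 to 62.9%), at 4 of 19 genes (Ldb3, Myl2, Tnni1 and Tpm1). With the 20000 strongest peaks of each list, streak genes had 16 D3-only of 31 regions (51.6%, 34.8 to 68.0%) against 18.3% over all genes, while sarcomere genes had 1 of 8 and FGF genes 6 of 30. Nodal, BMP and TGF-beta pathway genes then had 18 of 45 (27.0 to 54.5% as the interval), neural ectoderm genes 14 of 35 (25.6 to 56.4%) and endoderm genes 7 of 14 (26.8 to 73.2%). Naive pluripotency genes had 12 of 35 (20.8 to 50.8%), so high shares were not confined to the streak. At a −log10 q of at least 5 in the list with the region, streak genes had 15 D3-only of 46 regions (32.6%, 20.9 to 47.0%) against 14.3% over all genes. They had no D2-only region (0 to 7.71%), against a D2-only share of 4.00% over all genes. The Wnt, FGF, sarcomere and housekeeping groups had no D2-only region either. Wnt genes had 16 D3-only of 66 regions (24.2%, 15.5 to 35.8%). The streak and Wnt groups were those whose interval lay above the share over all genes with all peaks and in both of these settings.

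**Figure D4:**
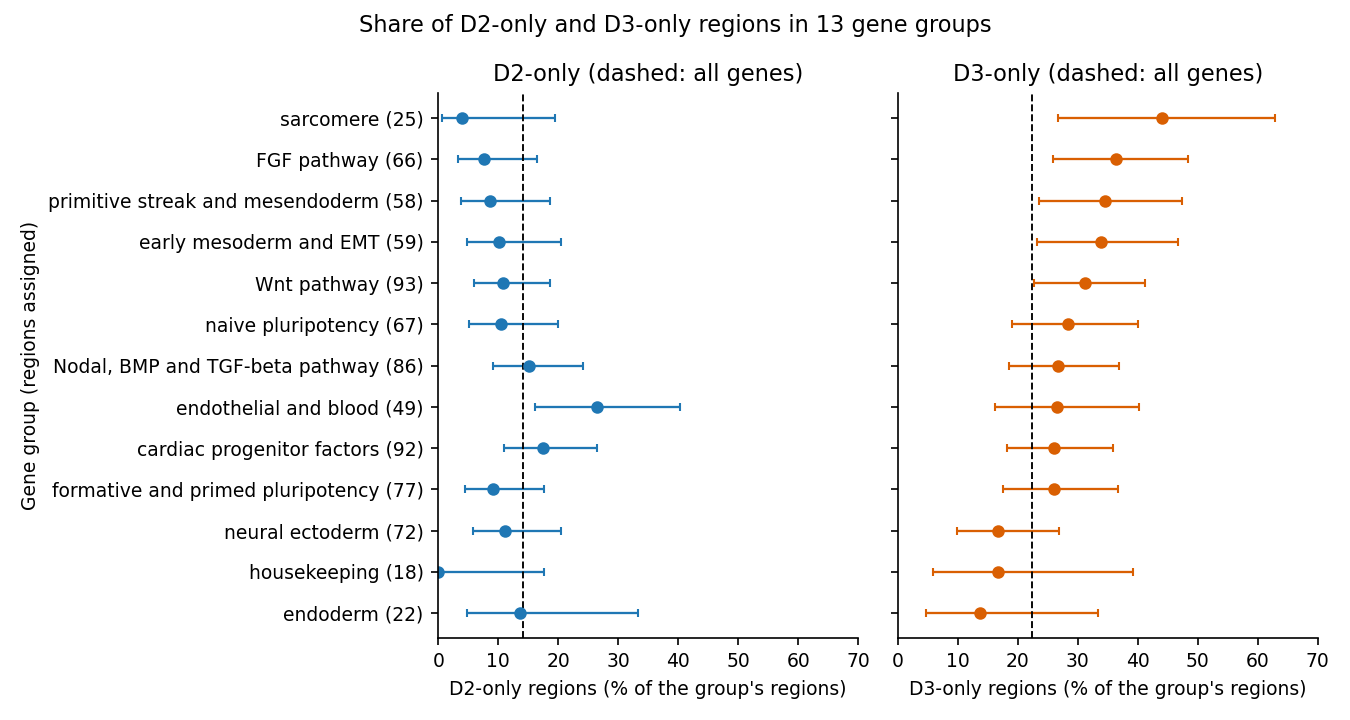
Share of D2-only (left) and D3-only (right) regions among the regions assigned to each of 13 gene groups (x axis, percent, points with Wilson 95% intervals, region numbers in brackets). Dashed lines mark the share over all protein-coding genes, 14.1% and 22.3%, and the streak group stands at 8.62% and 34.5%.

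Among streak ligands and their inhibitors, Nodal, Fgf8, Wnt3a and Lefty1 had D3-only regions, while Wnt3, a Wnt ligand that acts as the streak forms, had shared regions only. Nodal, the TGF-beta family ligand that patterns the streak, had a D3-only region 11.8 kb to the left of the gene (chromosome 10, 61405882 to 61406495), with a fold enrichment of 11.6 and calls at D3, D4 and D5 only. This was among the 10 strongest of the 761 newly called regions held to D5. A D2-only region within the Nodal gene had 2.87 and was called at D2, D4, D5 and D6. The shared region 1.78 kb to the left of Nodal had 3.08 at D2 and 6.37 at D3 and was last called at D3.

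Fgf8, an FGF ligand that streak cells need to migrate, had 2 D3-only regions, 2.94 and 1.11 kb to the left of the gene, with fold enrichments of 8.02 and 3.89. Both were called at D3, D4, D5 and D6 and in no other list. Its start region was shared, with 4.30 at D2 and 8.86 at D3, and 1 D2-only region lay in the gene body. Wnt3a, a Wnt ligand of the streak and tail bud, had 3 D3-only regions, the strongest 8.88 kb to the left with 4.56, called at D3 and D7. Lefty1, a secreted Nodal inhibitor, had 2 D3-only regions, 0.126 kb to the left with 5.48 and in the gene body with 5.00. The first was called at D3 and D7 and the second from D3 to D15 in every list. Lefty2, the related inhibitor, had shared regions only.

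Eomes, a T-box factor of the streak, had 4 D3-only regions and no D2-only region. The one 9.75 kb to the left (chromosome 9, 118468204 to 118468668) had a fold enrichment of 7.47 and was called at D3, D4, D5 and D7. The one 0.805 kb to the right (118486650 to 118487224) had 5.70 and was called from D3 to D6. The remaining 2, 45.2 and 20.1 kb to the left, were called at D3 only. The Eomes start region had 7.27 at D2 and 9.58 at D3 and was called in all 12 lists. Values were higher at D3 in 83.9% of all shared regions. Ranked among the shared regions of each day, the Eomes start region went down, from percentile 60.7 at D2 to 48.4 at D3. Evx1, a homeobox factor of the streak, had 5 D3-only regions, the strongest 7.41 kb to the left with 9.27. That region was also called at 2i, and so was not new at D3. Gsc, a homeobox factor of the anterior streak, had 2 D3-only regions and 1 D2-only region. Mixl1, Lhx1 and Cdx2 had shared regions only.

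The T gene, which encodes the T-box factor brachyury, is in a crowded locus, so all regions within 100 kb of its start were examined, a window chosen after the data were seen. Of 14 regions, 7 were D3-only, 1 was D2-only and 6 were shared. The start region was shared (chromosome 17, 8433629 to 8434597), with a fold enrichment of 5.10 at D2 and 10.6 at D3, and was called at D0 and from D2 to D8. Its centre lies in the body of the overlapping gene LOC115486424, to which it was assigned. The D3-only region with the highest value lay 45.1 kb to the left of the T start, in the body of the neighbouring gene T2, with 11.3 and calls from D3 to D8. Another, 58.3 kb to the left, had 8.04 and was called at D3, D4 and D5. To the right of T, a D3-only region at 34.4 kb from the start had 4.19 and was called from D3 to D8, and the D2-only region had 3.19 and was called at D2 alone.

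**Figure D5:**
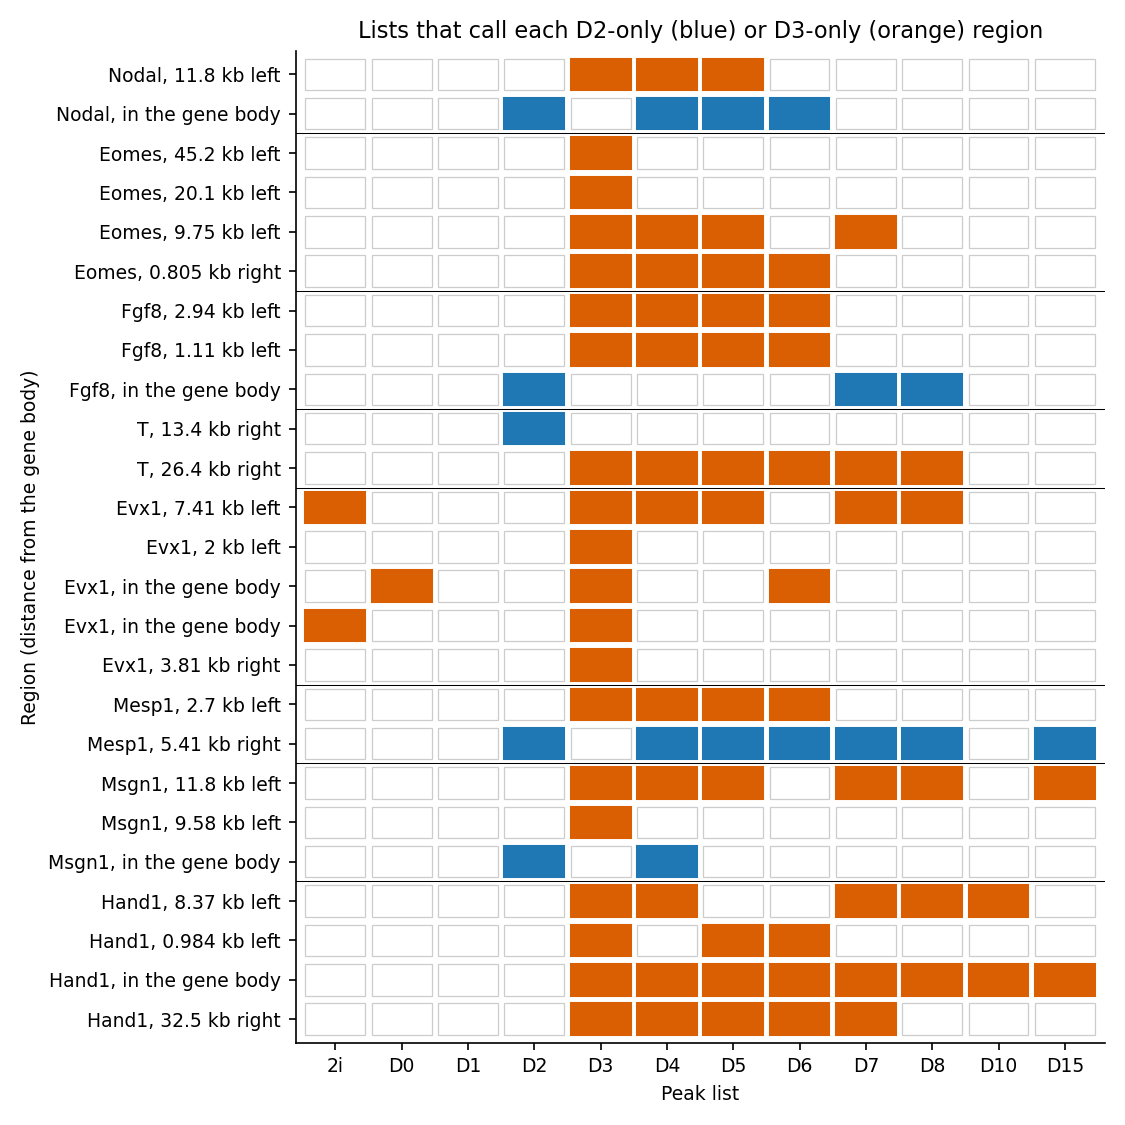
Lists (x axis) that call each D2-only (blue) or D3-only (orange) region assigned to 8 streak and early mesoderm genes (y axis, with the distance of the region from the gene body). Filled boxes are calls, and the orange rows at Nodal, Fgf8, Eomes, Mesp1 and Hand1 are empty at 2i, D0 and D1.

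Early mesoderm factors showed the same kind of region. Hand1, a bHLH factor of extraembryonic and cardiac mesoderm, had 4 D3-only regions and no shared or D2-only region. The region at its start had a fold enrichment of 5.16 and was called in every list from D3 to D15, and the strongest, 8.37 kb to the left, had 6.60. None of the 4 had a call at 2i, D0 or D1. Mesp1 had 1 D3-only region 2.70 kb to the left with 2.80, called from D3 to D6, and 1 D2-only region 5.41 kb to the right with 3.41, called at D2, from D4 to D8 and at D15. The D2-only region was therefore a gap at D3 in a region called later. Msgn1, a bHLH factor of presomitic mesoderm, had a D2-only start region with 3.19 and 2 D3-only regions, 11.8 and 9.58 kb to the left. Aplnr, the apelin receptor, and Dll1, a Notch ligand, had 1 newly called region held to D5 each, and Pdgfra, a receptor of paraxial and cardiac mesoderm, had a D3-only region called in no other list. Snai1 and Twist1, factors of the epithelial-mesenchymal transition, had 2 D3-only regions each. The one 10.3 kb to the right of Snai1 had 5.16 and was called at D3 and from D5 to D15. Kdr, a receptor of mesoderm with blood and vessel potential, had 2 D3-only and 1 D2-only regions.

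Newly called regions held to D5 were assigned to 4 streak genes (T, Eomes, Nodal and Fgf8, 6 regions) and 5 early mesoderm genes (Mesp1, Msgn1, Aplnr, Hand1 and Dll1, 6 regions). Over all protein-coding genes, 2.69% had such a region. Formative genes had 4, Wnt genes 4, endothelial and blood genes 3, and FGF and sarcomere genes 2 each. Endoderm, cardiac progenitor, housekeeping and Nodal, BMP and TGF-beta genes had 1 each, while naive pluripotency and neural ectoderm genes had 0. Such regions were at 2 of 19 sarcomere and 1 of 12 housekeeping genes, so shares of genes above 2.69% were not confined to streak and early mesoderm. Because the groups were chosen with earlier results of these data known, these counts are descriptions of the groups and nothing is read from them about other genes.

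Pathway genes with D3-only regions included receptors, nuclear effectors and feedback inhibitors. In the Wnt group, Lef1, a nuclear effector, had 4 D3-only regions and 1 D2-only region. The one 4.01 kb to the left of Lef1 had a fold enrichment of 5.91 and a −log10 q of 56.3 and was called from D3 to D8. Fzd10, a Wnt receptor, had 3 D3-only regions, and Fzd7, a second receptor, had 1 at 9.07 kb to the left with 8.41, called at 2i, D3, D4 and D5. Rnf43, which removes Wnt receptors, had 2, and Dkk1, a secreted Wnt antagonist, had 2 that were both also called at 2i. Axin2, a feedback inhibitor, had 2 D2-only regions and 1 D3-only region.

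In the FGF group, Fgf15, a ligand, had a D3-only region 7.62 kb to the left with 9.27, called at 2i, D0, D3 and D4. The feedback inhibitors Spry4 and Spry1 had 3 and 2 D3-only regions and Spry2 had 2 D2-only and no D3-only region. The receptor gene Fgfr3 had a D3-only region 16.3 kb to the left with 8.32, called at D3 and from D5 to D8. In the Nodal, BMP and TGF-beta group, 23 of 86 regions were D3-only (26.7%, 18.5 to 36.9%) and 13 were D2-only. Id3, a BMP target, had a D3-only region 3.25 kb to the left with 5.74 and a −log10 q of 42.0, called at D3, D4 and from D6 to D15. Id2, a related target, had 2 D3-only regions, and Smad7, an inhibitor of the pathway, had 2 D2-only regions that were both also called at 2i.

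Naive pluripotency genes had 41 shared, 19 D3-only (28.4%) and 7 D2-only (10.4%) regions, against 22.3% D3-only and 14.1% D2-only over all genes. With the 20000 strongest peaks they had 5 D2-only of 35 regions (14.3%, 6.26 to 29.4%), against 8.73% over all genes. In that setting 12 of the 35 were D3-only (34.3%, 20.8 to 50.8%), an interval above the 18.3% over all genes. The intervals of both D2-only shares include the share over all genes. Nanog and Sox2 had shared regions only, and Pou5f1 had a weak D2-only region 2.08 kb to the left with a fold enrichment of 2.25. Esrrb, an orphan nuclear receptor of the naive network, had 8 D3-only regions and no D2-only region. Of these 8, 3 were also called at 2i, D0 and D1, so they were gaps at D2, and 3 were called at D3 alone. Klf2, Klf5 and Tfcp2l1, factors of the same network, each had 1 D3-only region that 2i, D0 and D1 also held. For Tfcp2l1 it had a fold enrichment of 7.82 at D3. Prdm14, a repressor that guards the naive state, had 3 D3-only regions, of which 1 was also called at 2i, D0 and D1.

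Formative genes had 20 D3-only and 7 D2-only of 77 regions. Dnmt3a, a de novo DNA methyltransferase, had 4 D3-only regions and Dnmt3b, the related enzyme, had 3. Pou3f1, a POU factor of the primed epiblast, had 3 D3-only regions and no D2-only region, the strongest 25.9 kb to the left with 4.31. Fgf5, the ligand that marks primed cells, had 4 shared regions and 1 D2-only region called in no other list.

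Cardiac progenitor factors had 24 D3-only (26.1%, 18.2 to 35.9%) and 16 D2-only (17.4%) of 92 regions, close to the shares over all genes. Tbx5, a T-box factor of the heart field, had 5 D3-only regions and 1 D2-only region and no shared region. None of the 6 was called at 2i, D0, D1 or D4, and each D3-only one was called again at D7. Gata5, a zinc-finger factor, had 4 D3-only regions, and Gata4, a related factor, had 2 of each class. Fgf10, a ligand of the second heart field, had 3 D2-only regions and 1 D3-only region. Endothelial and blood genes had 13 D2-only of 49 regions (26.5%, 16.2 to 40.3%) against 14.1% over all genes, and had 13 D3-only regions as well. At a −log10 q of at least 5 they had 3 D2-only of 29 regions (3.58 to 26.4% as the interval), which includes the 4.00% over all genes. Cdh5, the adhesion molecule of vessel junctions, had 3 D2-only regions, and Lmo2, a cofactor of blood and vessel genes, had 2 that no other list held. Sox17, an endoderm factor, had no D3-only region. Among neural ectoderm genes, Lhx2, a LIM homeobox factor of the forebrain and eye field, had 3 D3-only and 2 D2-only regions, and the strongest D3-only one, in the gene body, had 10.2 and was called at D3, D5, D7, D8 and D10. Of the sarcomere genes, Myl2, a ventricular myosin light chain, had 3 D3-only regions of 2.85 to 5.01, of which 2 were also called at D0. Tnni1, the slow skeletal troponin I, had 3 of 2.81 to 3.73, of which 1 was also called at 2i.

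Housekeeping genes served as a reference. Of their 18 regions, 15 were shared, 3 were D3-only and none was D2-only. Gapdh, a glycolytic enzyme, had 1 shared region, with a fold enrichment of 5.64 at D2 and 8.98 at D3. Since the value at D3 was higher in 83.9% of all 25551 shared regions, a higher value at D3 is the rule and was not read as a change. Spearman's rho between the values of the 2 days was 0.80 over these regions, which come from 1 pair of lists.

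Shared regions were therefore ranked by fold enrichment among themselves on each day, and percentiles of the same 25551 regions were compared, a step added after the data were seen. Of the 23219 assigned to a gene, 7.82% had a percentile at D3 that was higher by 25 points or more, and 6.75% had one lower by as much. In the early mesoderm group it was 5 of 33 higher and 0 lower, and in the streak group 4 higher and 2 lower of 33. Endothelial and blood genes had 5 higher and 4 lower of 23, and endoderm genes 2 higher and 1 lower of 16. Formative genes had 6 higher and 2 lower of 50, and neural ectoderm genes 6 higher and 3 lower of 52. The streak share was thus like that of several other groups. Regions over 50 kb from a gene moved down more often than start regions, with 20.6% against 4.19% lower by 25 points or more.

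Single shared regions with large shifts were named from this ranking after their values were seen. A region in the body of Znrf3, which removes Wnt receptors, went from percentile 6.32 to 69.6, with a fold enrichment of 3.44 at D2 and 13.9 at D3. It was called from D2 to D6 only. Among group genes this was the largest gain. The next 3 were a region 17.0 kb to the left of Grhl2, an epithelial factor of the formative state, from 3.76 to 62.2, one to the left of Zic1, a neural zinc-finger factor, from 17.6 to 65.7, and one 7.96 kb to the left of Axin2, from 3.02 to 49.6. Regions of Tgfb1, Lhx2 and En1 followed, with gains of 43.9, 43.8 and 41.8 points, so the largest gains were spread over several groups. At D2 the regions of Znrf3, Grhl2 and Axin2 had a −log10 q of 2.29, 1.76 and 2.21. These lie near the 1.30 at which that list ends, while the Zic1 region had 5.02. Ranking by gain thus favours regions that were barely called at D2. The start region of Aplnr went from 1.23 to 41.6 and that of Mesp2, the neighbour and relative of Mesp1, from 26.9 to 63.4. The start region of Nanog went from 18.2 to 57.6 and was called at 2i, D1, D2 and D3 and in no list after D3. In the other direction, a region in the body of Meis2, a homeobox cofactor, went from 71.8 to 28.3 and was last called at D3. The next largest losses were in the bodies of Afp, an endoderm serum protein, from 45.9 to 3.09, and Flt1, an endothelial receptor, from 54.9 to 15.8. The region 2.38 kb to the right of Eomes went from 36.3 to 8.54, next to the D3-only region 0.805 kb to the right of the gene.

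The strongest 5 D2-only regions lay over 43 kb from any gene body, and those nearest to Zfp600 and Gm5150 were within 50 kb of one. The highest fold enrichment was 12.1 (chromosome 4, 71316447 to 71317016, 441 kb from the nearest start), and this region was called at 2i, D0, D1 and D2 and never after. A pair on chromosome 3 had 10.7 and 10.6 and the same pattern of calls. The region near Zfp600, with 10.99, was called at D2, D4 and D5 and in no earlier list, and one on chromosome 16, with 10.4, was called at 2i, D0, D1, D2 and D4. The strongest D3-only regions had values of 20.1 to 27.8 and lay in or near Tmem181a, Gm19802, Efl1, Rnaset2b and Zfp978. Tmem181a, Rnaset2b and Zfp978 belong to families with near-identical copies, at which reads cannot always be placed, so these calls are uncertain. The same caution is kept for the D2-only region near Zfp600. It starts at 146242071 on chromosome 4, and the region near Zfp978 starts at 147101556 on the same chromosome. Rtl8c, below, also has close copies. Of the 10 strongest newly called regions held to D5, 3 were on chromosome X (Gab3, Rtl8c and Pcsk1n), 2 of them at gene starts, and 1 was the region to the left of Nodal. The strongest of the 10 was at the start of Gm3558, with 16.1. How well reads could be placed was not examined at any of them.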

How the data were processed

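ATAC-seq was done on nuclei of 24 samples, 2 biological replicates at each of 12 time points, and the 12 deposited peak lists were used, with D2 and D3 compared and the others as readouts. Per the submitters' processing notes, MACS2 2.1.1 called peaks on build mm10, and Bowtie2 2.3.2, cutadapt 2.10, Picard and SAMtools 1.5 were also used. For settings, read depth, any transposase offset and the way replicates were combined, nothing is stated in what was used here. Signal tracks of single replicates were left out (not analysed here). A deposited peak comes with an interval, a display score, a fold enrichment (a linear ratio), a −log10 p-value, a −log10 q-value and a summit offset, all made by the authors' peak caller. Each value is the peak's own, and values of different lists are set side by side without scaling between them.

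Peaks were merged with bedtools 2.31.1 (overlap of at least 1 bp), and a region took the highest fold enrichment of its peaks in each list. Gene bounds came from the RefSeq table of GRCm38.p6 (21631 protein-coding genes, 231 of 231 group genes matched by symbol). A region belongs to the gene whose body holds its centre, otherwise to the nearest body within 50 kb. Starts come from the RefSeq promoter table, which covers 79.9% of the genes, and otherwise both gene ends were taken as starts. Left and right are by coordinate, and exon or intron was not determined. Of the 231 group genes, 161 had promoter windows.

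The gene groups, markers and settings were chosen with earlier results of these data known. Named genes are the up to 3 of each group with most D2-only or D3-only regions, the 5 with most among all genes, and 29 markers. Named regions are the strongest 5 of each class and the strongest of a named gene, and other genes and regions in the text were chosen after their values were seen. Alternatives were equal numbers of peaks, a −log10 q of at least 5, summits within 250 bp, overlap by 50% of the shorter interval, starts within 5 kb, and assignment within 20 and 100 kb. Scripts were tested on simulated peak lists.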

Additional observations from a re-analysis of the deposited data

How the results depend on the processing

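No paired analysis was possible because both replicates of a day share 1 peak list, and for the same reason no replicate could be left out. With the 20000 strongest peaks of each list there were 14598 shared, 2360 D2-only and 3897 D3-only regions. Start regions were then 15.6% of D2-only and 26.9% of D3-only regions, a D1 peak overlapped 62.5% of D2-only and a D4 peak 49.8% of D3-only regions. With a −log10 q of at least 5 in both lists, D2-only regions numbered 2689, with start shares of 7.66% (D2-only) and 14.0% (D3-only), a D1 share of 49.6% and a D4 share of 33.2%, and naive genes had 2 D2-only regions. With that bound in the list with the region, there were 1735 D2-only and 4471 D3-only regions, the D3-only start share was 8.83%, the D1 and D4 shares were 50.7% and 26.1%, and naive genes had 1 D2-only region. With summits within 250 bp, start shares were 7.53% and 8.41% and the D4 share was 23.3%. Within 5 kb, start shares were 14.0% and 16.7%. In these settings the D3-only start share was above the D2-only one and D3-only regions outnumbered D2-only regions. Alternatives chosen after seeing the data left 761 newly called D3-only regions held to D5 (6 at streak genes), 3588 D2-only regions uncalled after D3 and 930 called at D0 and D1 and uncalled from D3 to D5 (0 at naive genes). Peak lists without depth limit all of this to called and not called.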
